A study of Mus musculus with 8 samples.

Results

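The striatum-poor libraries are the 2 of 8 mouse brain RNA-seq libraries that held fewer than 100 raw counts of Adora2a, an adenosine receptor gene of the striatum. They are CAA mock 2, with 22 counts, and WT mock 1, with 37 counts. The other 6 libraries held 445 (CAA stress 2) to 1099 (CAA stress 1) counts. The values nearest the threshold were thus 37 counts below it and 445 counts above it.

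The series compared mice described as having CAA (cerebral amyloid angiopathy, the deposition of amyloid in brain blood vessels) with wild-type (WT) mice. Mice of each kind were put under chronic restraint stress or mock-treated, which gives 4 groups of 2 libraries: CAA stress, CAA mock, WT stress and WT mock. All mice were perfused with PBS before RNA was taken from brain. The sources used here do not give the strain and alleles behind CAA, the age of the mice or the part of the brain taken, nor do they say that each library came from a separate animal. Numbers after a group name are the replicate numbers of the titles. Both striatum-poor libraries are mock-treated, so every stress library is on the other side, and each genotype contributed 1 of the pair.

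Depth ran from 17275201 to 18894657 counts a library, and 17182 genes had enough counts to be compared. Mitochondrial genes took 6.10% to 9.99% of the counts, with CAA mock 2 at the top of that range. By Xist and Y-linked counts, WT mock 1 and CAA stress 1 were female and the other 6 libraries male, so the pair holds 1 of each sex. Values are CPM, counts scaled to the size of the library by TMM. A difference is the mean log2 CPM of CAA mock 2 and WT mock 1 minus the mean over the 6 others. Because the libraries were picked by a gene of the same table, no gene in this contrast was tested; the differences are descriptions.

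The striatum receives dopamine from the midbrain and is the main input station of the basal ganglia. Most of its neurons are GABAergic spiny projection neurons of 2 kinds: direct pathway cells carry the D1 receptor and make substance P and dynorphin, and indirect pathway cells carry the D2 receptor and Adora2a and make enkephalin. D1 and adenosine receptors of this kind raise cyclic AMP through the olfactory-type G protein and adenylyl cyclase 5, D2 receptors lower it, and the phosphatase inhibitor DARPP-32 integrates both. These neurons arise from the embryonic ganglionic eminences under Dlx and other subpallial transcription factors. The striatum lies beside the septum and the basal forebrain, with the hypothalamus below and behind it.

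Promoters are shown for Drd1 and Drd2, the receptors that mark the direct and indirect pathways, and for Tac1, the substance P precursor. These genes were low together in the pair, as were most spiny neuron genes, and had a promoter sequence available. None was available for Adora2a, Penk or Ppp1r1b. The sequences run from 250 bases before to 50 bases after the start site and are from RefSeq, build GRCm38.p6. Drd1 is shown at chr13:54055609-54055908 on the minus strand, Drd2 at chr9:49340153-49340452 on the plus strand and Tac1 at chr6:7554811-7555110 on the plus strand. Capitals mark the cyclic AMP response element half-site, TGACG on either strand.
Drd1: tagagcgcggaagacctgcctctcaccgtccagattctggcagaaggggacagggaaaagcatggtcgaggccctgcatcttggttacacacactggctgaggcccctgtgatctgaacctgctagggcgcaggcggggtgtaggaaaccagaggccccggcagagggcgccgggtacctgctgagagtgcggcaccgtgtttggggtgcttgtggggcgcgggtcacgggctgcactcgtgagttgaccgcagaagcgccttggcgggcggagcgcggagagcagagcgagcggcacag
Drd2: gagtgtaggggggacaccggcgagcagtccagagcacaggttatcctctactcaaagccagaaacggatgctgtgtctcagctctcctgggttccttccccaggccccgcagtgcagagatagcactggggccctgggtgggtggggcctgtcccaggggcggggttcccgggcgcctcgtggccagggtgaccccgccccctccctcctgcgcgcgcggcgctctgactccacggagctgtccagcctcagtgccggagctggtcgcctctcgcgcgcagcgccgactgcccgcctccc
Tac1: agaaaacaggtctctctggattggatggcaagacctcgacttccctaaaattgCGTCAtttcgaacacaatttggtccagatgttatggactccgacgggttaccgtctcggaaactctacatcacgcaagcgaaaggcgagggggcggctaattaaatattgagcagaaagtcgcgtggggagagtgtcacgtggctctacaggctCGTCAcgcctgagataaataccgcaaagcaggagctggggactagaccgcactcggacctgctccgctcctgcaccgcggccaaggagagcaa
The half-site occurred 2 times in the Tac1 window, and no match was found in the Drd1 or Drd2 windows. Of the spiny neuron genes described next, 26 had a promoter in the table, and 4 of these (15.4%) held the half-site, against 21.0% of all 27025 promoters and 30.1% of those of genes tested here. The homeodomain core TAATTA, which reads the same on both strands, was in 1 of the 26 (3.85%), in the Tac1 window, against 5.31% of all promoters and 2.7% of those of genes tested.

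Of 34 measured genes of spiny neurons, 33 were lower in both striatum-poor libraries than in every one of the other 6. Of these, 26 were also at least 2-fold lower. Over all 17182 genes, 5.88% lay below all 6 others, and 1.52% did so with at least a 2-fold difference. Adora2a belongs to the list and chose the libraries, and the rest of the list marks the same cells, so these counts are no test. The median difference of the 34 genes was -2.08 on the log2 scale, or -2.03 with the gene that had no count in the pair, Drd3, set to its bound. In bulk tissue, fewer cells of a type and less RNA per cell cannot be told apart.

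The indirect pathway list had the lowest median of the 3 spiny lists, -3.07, with 5 of 5 genes at least 2-fold lower. Adora2a, at chr10:75316877-75334784 on the plus strand of mm10, had 1.24 CPM in CAA mock 2 and 1.99 CPM in WT mock 1, against a lowest, median and highest of 23.8, 49.6 and 60.9 CPM in the 6 others. Drd2, the dopamine D2 receptor, had 7.66 CPM in CAA mock 2 and 3.28 CPM in WT mock 1, against 18.8, 35.6 and 42.1 CPM. Penk, the enkephalin precursor, had 31.2 and 24.2 CPM in CAA mock 2 and WT mock 1, while the 6 others lay between 158 and 285 CPM. The pair thus kept 3.49% of the others' mean for Adora2a, 16.5% for Drd2 and 11.8% for Penk. The orphan receptor gene Gpr6 kept 10.4% and the transcription factor gene Sp9, needed for indirect pathway neurons in mice, kept 23.0%.

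Among the direct pathway genes 7 of 8 were below all others and 5 were at least 2-fold lower, with a median of -1.81. Drd1, the D1 receptor, had 6.87 CPM in CAA mock 2 and 3.87 CPM in WT mock 1, against 24.4 to 50.2 CPM in the 6 others. Tac1 had 20.1 and 16.7 CPM in the pair, against 48.9 to 106 CPM. Pdyn, the dynorphin precursor, had 13.1 and 21.1 CPM in the pair, against 40.7 to 50.3 CPM. These were 15.1%, 22.2% and 36.5% of the others' means for Drd1, Tac1 and Pdyn. Isl1, a homeobox gene of direct pathway and cholinergic neurons, had no count in CAA mock 2 and 0.108 CPM in WT mock 1, against 3.54 to 5.25 CPM. Slc35d3, a transporter-like protein that helps D1 receptors leave the endoplasmic reticulum in mice, kept 16.2%. Chrm4, the M4 muscarinic receptor, kept 52.6% and Sfxn1, a mitochondrial serine carrier, kept 91.7%; both were below all 6 others by less than 2-fold. Eya1 overlapped the others, with 12.3 CPM in CAA mock 2 and 10.3 CPM in WT mock 1, against 6.22 to 10.5 CPM.

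All 21 genes shared by both kinds of spiny neuron lay below the others, and 16 were at least 2-fold lower. Rgs9, a GTPase-activating protein that ends D2 signalling, had 7.21 and 7.37 CPM in CAA mock 2 and WT mock 1, against 43.3 to 76.6 CPM in the 6 others, or 11.8% of their mean. Ppp1r1b, which encodes DARPP-32, had 51.9 and 62.6 CPM in the pair, against 218 to 397 CPM, or 19.0%. Pde10a, the striatal cyclic nucleotide phosphodiesterase, kept 22.1%. The retinoic acid receptor gene Rarb kept 20.8% and Six3, a homeobox gene with an antisense neighbour that unstranded counting may not fully separate, kept 24.1%. Ido1, the tryptophan-degrading dioxygenase, had 0.169 and 0.161 CPM in the pair, against 1.39 to 5.16 CPM. Drd3 had no count in either, against 0.218 to 0.643 CPM, at least 2.61-fold lower with a floor of 3 counts per library.

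The shared genes that kept most were the tyrosine phosphatase gene Ptpn5, at 65.0% of the others' mean, Bcl11b, a zinc finger factor gene that deep cortical layers also use, at 58.8%, the guanine nucleotide exchange factor gene Rasgrp2 at 57.9%, the olfactory-type G protein gene Gnal at 56.0% and Arpp21 at 50.5%. Pde1b had 144 CPM in both CAA mock 2 and WT mock 1, against 232 to 350 CPM, or 46.5%. All of these were below every other library.

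**Figure D1:**
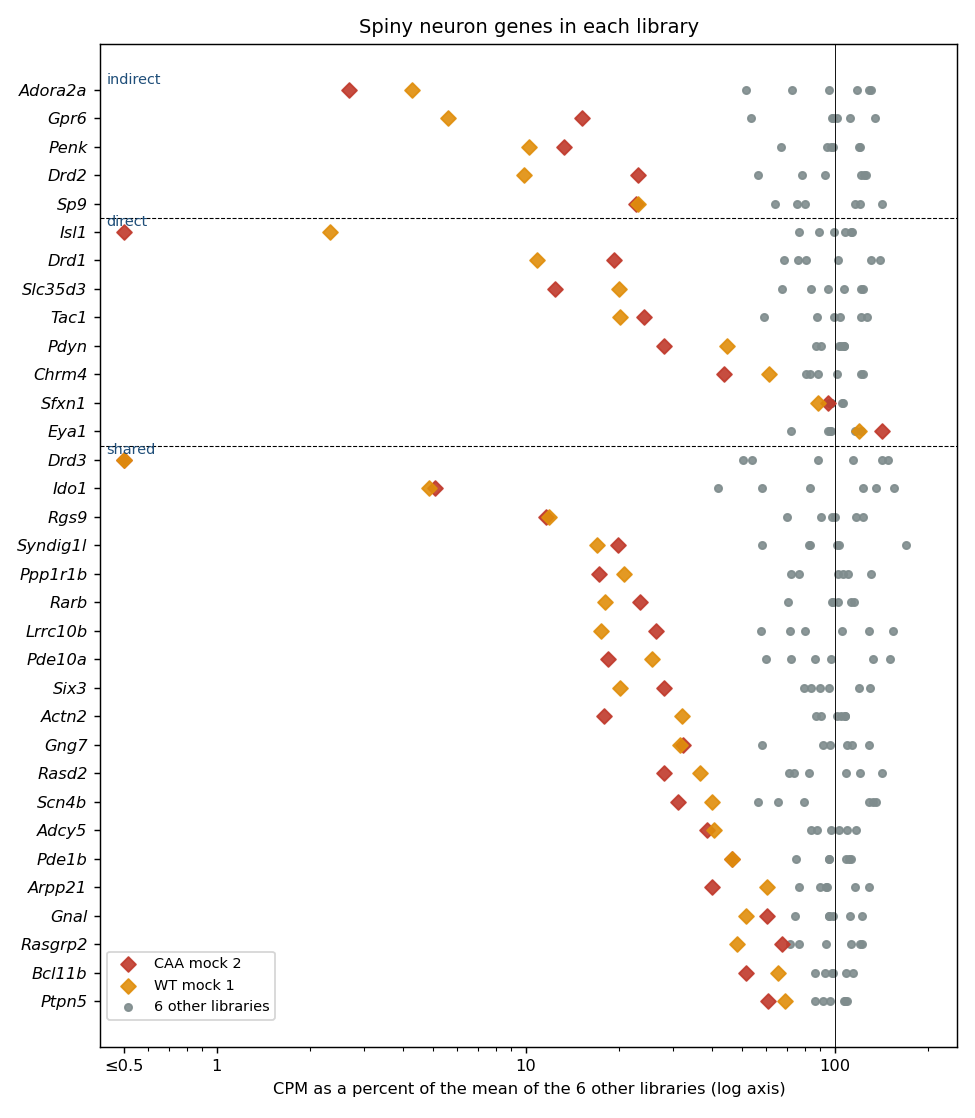
CPM of 33 of the 34 spiny neuron genes in each library as a percent of the mean of the 6 other libraries (log axis; values under 0.5% are drawn at 0.5%), with dashed lines between the indirect, direct and shared lists. Diamonds are CAA mock 2 and WT mock 1, circles the 6 others; only Eya1 has a diamond among or above the circles.

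Within the pair, the lists stood at like levels. The mean level of the 34 genes, each centred on its mean over the 8 libraries, was -1.51 in CAA mock 2 and -1.48 in WT mock 1. Among the others it ran from 0.12 in CAA stress 2 to 0.77 in WT mock 2. The median of CAA mock 2 minus WT mock 1 over the genes was -0.01, with 16 of 34 higher in CAA mock 2. Single genes differed more: Drd2 was 7.66 CPM in CAA mock 2 and 3.28 CPM in WT mock 1, and Pdyn was 13.1 and 21.1 CPM.

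A wider list of 52 genes of dopamine and cyclic AMP signalling, which shares 15 genes with the spiny lists, had 22 members below all others, 2 above and a median of -0.27. In all, 14 were at least 2-fold lower. The 2 called genes that are not in the spiny lists were Oprk1, the kappa opioid receptor, with 7.89 and 4.14 CPM in CAA mock 2 and WT mock 1 against 8.89 to 14.9 CPM, and Pde7b, a cyclic AMP phosphodiesterase, with 27.9 and 35.6 CPM against 38.0 to 97.2 CPM. Adcy5 had 170 and 179 CPM in the pair, against 369 to 517 CPM in the 6 others. Adcy1, the cyclase of cortex and hippocampus, overlapped, with 746 and 1237 CPM against 589 to 773 CPM. The A1 adenosine receptor gene Adora1 was above all others, with 167 and 211 CPM against 136 to 164 CPM. So was Drd5, the D5 receptor of cortex and hippocampus, with 2.70 and 2.37 CPM against 1.64 to 2.32 CPM. The protein kinase A subunit genes Prkaca, Prkacb and Prkar1a were at 99.6%, 103% and 105% of the others' means.

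Factors of the ganglionic eminences and of the cholinergic neurons born there were also lower in part. Of 12 subpallial transcription factors, 6 were below all others and at least 2-fold lower, with a median of -1.22. Dlx2 had 1.13 and 2.37 CPM in CAA mock 2 and WT mock 1, against 5.12 to 20.6 CPM, and Dlx5 had 1.30 and 1.24 CPM, against 3.60 to 9.54 CPM. Meis2 had 82.6 and 86.0 CPM in the pair, against 163 to 276 CPM. Dlx1, Dlx6 and Sp8 made up the rest. The spans of Dlx1 and Dlx6 overlap antisense genes, which may share reads where strand is not counted. Foxp1 and Foxp2, which cortex and thalamus also express, overlapped the others at 87.4% and 78.0% of their means, and so did Zic1, with 37.8 and 15.98 CPM in the pair, against 21.1 to 106 CPM.

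The cholinergic list had 4 of 7 genes at least 2-fold lower. Lhx8, the homeobox gene that specifies forebrain cholinergic neurons, had no count in CAA mock 2 and 0.0538 CPM in WT mock 1, against 1.88 to 3.64 CPM. Gbx1 had no count in CAA mock 2 and 0.161 CPM in WT mock 1, against 2.04 to 3.01 CPM. Chat and Slc5a7, which serve acetylcholine synthesis, lay below all others in WT mock 1 and among them in CAA mock 2. Chat, choline acetyltransferase, had 3.32 CPM in CAA mock 2 and 0.968 CPM in WT mock 1, against 2.57 to 7.33 CPM, and the choline transporter gene Slc5a7 had 8.22 and 2.74 CPM, against 4.61 to 18.9 CPM. Of 8 genes of septum and pallidum, 3 were below all others, 1 was above and 4 overlapped. Nkx2-1, the factor of the medial ganglionic eminence and hypothalamus, was the 1 that was at least 2-fold lower, with 0.113 CPM in CAA mock 2 and no count in WT mock 1, against 1.59 to 3.31 CPM. Trpc4, a cation channel gene, was the 1 above, with 16.6 and 16.9 CPM, against 9.32 to 15.8 CPM.

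Homeobox genes were 10 of the 262 genes (3.82%) at least 2-fold below all others and 3 of the 103 (2.91%) at least 2-fold above, against 79 of 17182 genes tested (0.46%). This count was made after the values were seen. The 10 were Isl1, Lhx8, Nkx2-1, Gbx1, Dlx2, Dlx6, Dlx5, Six3, Meis2 and Dlx1, and the 3 were Lhx1, En2 and Barhl1. En2 and Barhl1 passed the count filter only through the pair, where they are high. Outside the pair, En2 had 1.42 CPM in CAA stress 1 and at most 0.496 CPM elsewhere. Barhl1 had 0.981 CPM in CAA stress 1 and at most 0.175 CPM elsewhere. The 2.91% is therefore no support for a raised share among the higher genes. Of the 10 lower ones, Isl1 and Six3 are in the spiny lists, and Adora2a of those lists chose the pair. The 3.82% is therefore no test of a raised share among the lower genes.

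Several hypothalamic genes were lower as well. Of 11 hypothalamic peptide genes that could be compared (of 15 listed), 5 were below all others and 4 at least 2-fold lower. Avp, the vasopressin precursor, had 0.394 CPM in CAA mock 2 and 0.161 CPM in WT mock 1, against a lowest, median and highest of 7.22, 24.7 and 91.1 CPM in the 6 others. Oxt, the oxytocin precursor, had 0.507 CPM in CAA mock 2 and no count in WT mock 1, against 6.19 to 34.6 CPM. Trh, the thyrotropin-releasing hormone precursor, had 1.35 and 0.108 CPM in the pair, against 11.99 to 18.6 CPM. Gal, the galanin precursor, had 0.338 and 0.377 CPM in the pair, against 0.766 to 4.93 CPM. Avp, Oxt and Trh are made by paraventricular or supraoptic neurons, and Sim1, the factor that forms those neurons, had 0.0563 CPM in CAA mock 2 and no count in WT mock 1, against 0.606 to 1.39 CPM.

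Hcrt (orexin) had 0.113 and 0.0538 CPM in CAA mock 2 and WT mock 1, but 10.9 CPM in CAA stress 1, 13.2 CPM in CAA mock 1 and at most 0.165 CPM in the rest. Pmch, melanin-concentrating hormone, had 0.394 and 0.108 CPM in the pair, 28.6 CPM in CAA stress 1, 17.9 CPM in CAA mock 1 and at most 0.493 CPM elsewhere. These lateral hypothalamic peptides were thus low in 6 of 8 libraries. Otp, a factor of several hypothalamic nuclei, had 2.82 CPM in CAA mock 2 and 0.269 CPM in WT mock 1, against 1.07 to 6.05 CPM. Of 12 other hypothalamic genes 4 were at least 2-fold lower, among them Fezf1, with no count in either (at least 6.57-fold lower), and Lhx1 was higher, with 1.92 and 1.08 CPM against 0.0547 to 1.04 CPM.

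Olfactory bulb and choroid plexus genes also varied among the 6 others. Of 7 bulb genes, 6 were at least 2-fold lower in the pair. Omp, the olfactory marker protein, had 0.338 and 0.161 CPM in CAA mock 2 and WT mock 1, but also 0.350 CPM in CAA mock 1 and 0.818 CPM in CAA stress 1, against 6.27 to 11.4 CPM in the other 4. Doc2g, a mitral and tufted cell gene, had 0.789 and 0.699 CPM in the pair, 2.51 CPM in CAA mock 1, 1.74 CPM in CAA stress 1 and 8.68 to 17.0 CPM in the rest. Ttr, the thyroxine carrier of choroid plexus, had 2.65 and 36.9 CPM in the pair and between 3.31 CPM (WT mock 2) and 449 CPM (WT stress 2) in the 6 others. Clic6 and Aqp1 were the 2 choroid plexus genes of 11 that were at least 2-fold lower.

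**Figure D2:**
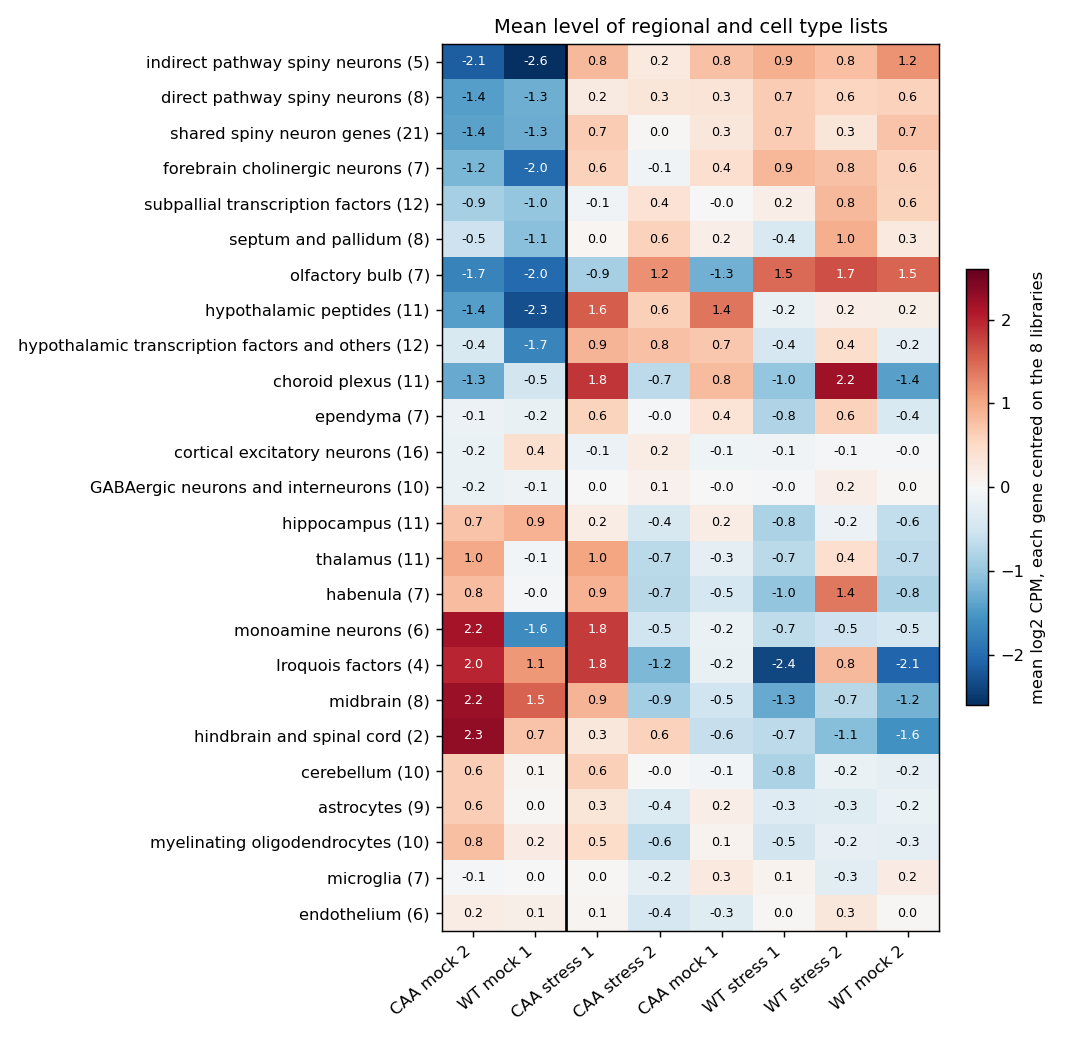
Mean log2 CPM of each list, every gene centred on its mean over the 8 libraries, with CAA mock 2 and WT mock 1 left of the line and the number of genes in brackets. The 3 spiny lists are between -2.58 and -1.27 in the pair and at least 0.02 in the others, while olfactory bulb and choroid plexus also separate the 6 others.

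Fewer genes were higher in the striatum-poor pair: 807 genes (4.7% of all tested) lay above all others, and 103 (0.599%) did so by at least 2-fold. Of the 103, 16 were in a list, and of the 262 lower ones 55 were.

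Hippocampal genes, chiefly those of the dentate gyrus, were higher. Of 11, 7 were above all others, 6 by at least 2-fold, with a median of 1.24. The rise was uneven: the median was 0.30 for CAA mock 2 minus CAA mock 1 and 1.64 for WT mock 1 minus WT mock 2. The summed CPM of the list did not separate the pair, with 278 in CAA mock 2 and 249 in WT mock 1, against 223 to 415 in the others. Prox1, the homeobox-related factor of dentate granule cells, had 30.6 CPM in CAA mock 2 and 25.9 CPM in WT mock 1, against 7.66 to 20.3 CPM. C1ql2, a synaptic organiser of mossy fibres, had 26.1 and 14.0 CPM in the pair, against 0.438 to 12.98 CPM, and Lct, lactase, which is also a dentate marker, had 7.10 and 7.26 CPM, against 0.674 to 3.38 CPM. Dsp, desmoplakin, had 3.27 and 6.402 CPM, against 0.164 to 2.56 CPM. The CA1 genes Fibcd1 and Spink8 were also above the others, with 36.2 and 37.6 CPM for Fibcd1 in the pair, against 11.2 to 32.1 CPM. Bok was below all others, and Wfs1 overlapped with 106 and 78.6 CPM, against 93.5 to 289 CPM.

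Of the midbrain transcription factors, 3 were at or near 0 outside the pair. Pax7, a factor of the superior colliculus, had 3.72 CPM in CAA mock 2 and 2.31 CPM in WT mock 1, against 0.545 CPM in CAA stress 1 and no count in the other 5. Pou4f2 had 1.07 and 1.56 CPM in the pair, against 0.327 CPM in CAA stress 1 and no count in the other 5. Gata3, a factor of midbrain and hindbrain GABAergic neurons, had 2.53 and 2.37 CPM in the pair, against at most 0.22 CPM. Tal1 and Sox14 were also at least 2-fold above the others. Pax7, Pou4f2 and Gata3 passed the count filter only through the pair, so the median of the 8 genes that passed, 2.51, is no support. That median was 1.89 over all 9 listed genes with no filter. En1 was not shared by the pair, with 2.99 CPM in CAA mock 2 and 0.0538 CPM in WT mock 1, against at most 1.58 CPM. The glycine transporter gene Slc6a5, of hindbrain and spinal cord, had 6.31 and 1.08 CPM in the pair, against at most 1.02 CPM, while the 10 Hox, Phox2 and other hindbrain genes of its list that failed the count filter had at most 4 counts in all libraries together.

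Thalamic, habenular and Iroquois genes overlapped the others in 21 of 22 cases; Tac2 was below all others. The mean centred level of the thalamic list was 0.98 in CAA mock 2 and -0.07 in WT mock 1, against 1.02 in CAA stress 1 and -0.71 to 0.43 in the other 5. The Iroquois list stood at 1.99 and 1.13 in the pair and at 1.83 in CAA stress 1. Tcf7l2, the thalamic factor, had 50.8 and 26.5 CPM in CAA mock 2 and WT mock 1, 38.0 CPM in CAA stress 1 and 4.55 CPM in CAA stress 2. Slc17a6, the vesicular glutamate transporter of subcortical neurons, had 180 and 112 CPM in the pair, against 38.7 to 139 CPM.

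None of 16 genes of cortical excitatory neurons was 2-fold higher or lower in the pair without overlap. The median was 0.08; it was 0.44 without CAA mock 2 and -0.27 without WT mock 1, so its sign rests on WT mock 1. Neurod6 had 72.6 and 96.6 CPM in CAA mock 2 and WT mock 1, against 26.5 to 57.9 CPM, and Etv1 had 118 and 123 CPM, against 68.5 to 98.7 CPM. Slc17a7, the vesicular glutamate transporter of cortex and hippocampus, had 682 and 1109 CPM, against 909 to 1667 CPM. Of 10 GABAergic genes, Gad2 and Slc32a1 were below all others, at 66.9% and 58.0% of their means, and Pvalb was above, with 109 and 110 CPM against 33.9 to 103 CPM.

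Glial and vascular genes seldom separated the pair from the others. All 10 myelin genes were positive with a median of 0.72, and 2 of them, Opalin and Aspa, were above all others; Mbp had 7964 and 4892 CPM in CAA mock 2 and WT mock 1, against 2782 to 8187 CPM. The astrocyte median was 0.39, with Aqp4 above all others. No microglial (median -0.09) or endothelial (median 0.19) gene separated the pair from the rest.

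CAA mock 2 and WT mock 1 differed from each other in several other lists. In CAA mock 2, all 6 measured genes of dopamine and serotonin neurons were above WT mock 1, with a median difference of 3.11 on the log2 scale. Th, tyrosine hydroxylase, had 12.9 CPM in CAA mock 2 and 1.34 CPM in WT mock 1, against 7.71 to 16.6 CPM in the 6 others. Slc6a3, the dopamine transporter of midbrain neurons, had 20.2 CPM in CAA mock 2 and 0.0538 CPM in WT mock 1, against 0.772 to 12.98 CPM. Slc6a4, the serotonin transporter of the raphe, had 7.89 CPM in CAA mock 2 and 0.0538 CPM in WT mock 1, against no count to 5.18 CPM. Thalamic genes were higher in CAA mock 2 than in WT mock 1 for 11 of 11, with a median of 0.93, and myelin genes for 10 of 10, with a median of 0.65. Immediate early genes were lower in CAA mock 2 for 7 of 8, with a median of -1.08, and cortical genes for 14 of 16, with a median of -0.53.

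The comparison was repeated inside each mock group, where genotype and treatment are the same: CAA mock 2 minus CAA mock 1, and WT mock 1 minus WT mock 2. The differences share no library, but each rests on 1 library a side and has no replicate check; WT mock 1 also differs from WT mock 2 in sex. Each also starts from a library picked for few Adora2a counts, so low spiny genes in both follow from that choice. At least 2-fold lower were 765 genes (4.45%) in the CAA pair and 834 (4.85%) in the WT pair. The lists shared 224 genes (1.3% of all), which is 29.3% of the CAA list and 26.9% of the WT list. Genes that moved by 2-fold in opposite ways were 53 with the CAA difference negative and 68 with it positive. At least 2-fold higher were 790 (4.6%) and 638 genes (3.71%), with 171 shared (0.995%), which is 21.6% of the CAA list and 26.8% of the WT list. Across all 17182 genes, which are not independent replicates, Pearson's r between the differences was 0.273 and Spearman's rho 0.172; at 10 CPM or more (9921 genes) r was 0.349.

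Drd1 differed by -2.06 in the CAA pair and -3.56 in the WT pair, Ppp1r1b by -2.57 and -2.36, and Avp by -5.48 and -6.63. Omp differed by -0.04 in the CAA pair and -4.69 in the WT pair, and Hcrt by -5.90 and 0.57. Both CAA mock libraries were low in Omp and both WT mock libraries were low in Hcrt, so a difference near 0 there is one between 2 low values. Pax7 differed by 5.11 and 4.45, C1ql2 by 1.42 and 2.97, and Ttr by -5.86 and 3.43.

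**Figure D3:**
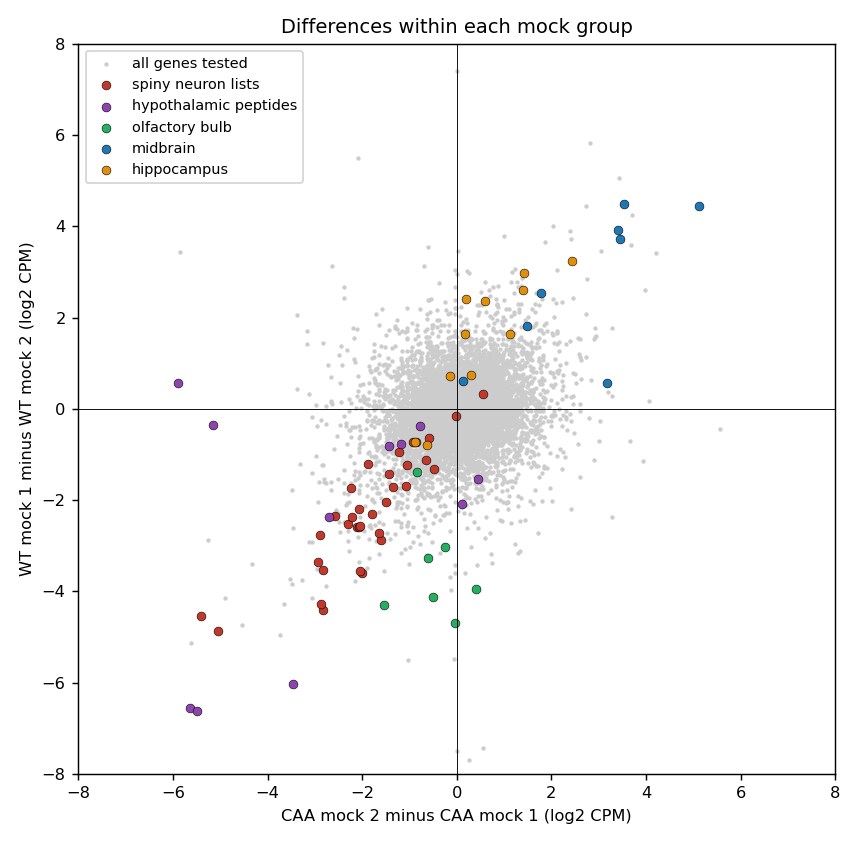
Log2 CPM difference of each gene tested inside the CAA mock group (horizontal) and inside the WT mock group (vertical), with 5 kinds of listed gene coloured; 1 gene lies outside the plotted range. Spiny neuron genes fall along the diagonal at the lower left and midbrain genes at the upper right. The place of the spiny genes follows from the choice of the pair, and some midbrain genes passed the count filter only through it. Olfactory bulb genes differ more inside the WT mock group (median -3.95, against -0.49 inside the CAA mock group) and the peptide gene Hcrt inside the CAA mock group.

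Outside the lists, 12 genes in each direction were taken by the smaller of the 2 within-group differences. On the low side stood Rxrg, a retinoid X receptor, with 2.93 and 2.85 CPM in CAA mock 2 and WT mock 1, against 25.3 to 39.7 CPM in the 6 others. Sh3rf2, an E3 ligase gene, had no count in CAA mock 2 and 0.161 CPM in WT mock 1, against 3.38 to 9.63 CPM, and Serpina9, a serine protease inhibitor, had 0.169 and 0.215 CPM, against 4.07 to 8.53 CPM. Cd4, known as the T helper cell co-receptor, had 0.282 and 0.538 CPM in the pair, against 2.57 to 10.4 CPM. Ptpn7, a phosphatase known from leukocytes, had no count in either, at least 11.4-fold lower with the floor of 3 counts per library. The channel genes Kcna5 and Ano2 kept 19.1% and 17.7% of the others' means. Crabp1, Clec12a, Lrp8os2 and Abi3bp were also on this side. Lrp8os2 is an antisense gene whose span overlaps Lrp8, and its reads may not be separable from those of Lrp8.

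On the high side, Tfap2b, an AP-2 transcription factor, had 5.07 CPM in CAA mock 2 and 6.67 CPM in WT mock 1, against 0.292 to 1.88 CPM. The fast synaptic release genes Syt2 and Vamp1 had 84.6 and 83.5 CPM for Syt2 in the pair, against 20.8 to 47.8 CPM, and 323 and 266 CPM for Vamp1, against 112 to 213 CPM. Cabp7, a calcium-binding protein, had 203 and 148 CPM, against 31.1 to 91.5 CPM. Prph, the peripherin intermediate filament, had 4.51 and 2.58 CPM, against 0.281 to 2.34 CPM. The rest were Exoc3l4, Glp2r, Tshz2, Alox8, Lefty1, Mboat1 and Scnn1a, at 214% to 420% of the others' means. The spans of Syt2, Vamp1, Cabp7, Exoc3l4, Glp2r and Tshz2 overlap genes on the opposite strand, and some reads may be shared if strand was not counted. Exons were not compared, so how many is not known. The genes overlapped held fewer counts than Vamp1, Cabp7, Exoc3l4 and Tshz2 themselves. Syt2 had 6471 counts over the 8 libraries, against 22636 for Ppp1r12b, which it overlaps. Glp2r had 370, against 52323 for Gas7.

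Because both striatum-poor libraries are mock-treated, the labelled comparison of stress with mock was fitted with and without them. The p-values here measure no more than the spread between libraries, which may be technical. In the edgeR quasi-likelihood test over all 8 libraries no gene passed an adjusted p of 0.05 for stress averaged over genotype (0% in each direction; 657 genes had an unadjusted p under 0.05, and DESeq2 called 3). None of the 34 spiny genes was called, yet 33 had a positive log2 fold change and the median was 0.59, against 0.00 over all genes. Without the 2 libraries no gene was called either (0%, 506 at an unadjusted p under 0.05). The spiny median was then -0.10, and 12 of 34 were positive. Both libraries left out are mock libraries chosen for few counts of a striatal gene, so a lower stress fold change and a smaller spread of spiny genes without them follow from the choice.

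Drd1 averaged 34.5 ± 11.7 CPM under stress and 21.6 ± 20.2 CPM under mock (SD, n = 4 libraries each), and its edgeR log2 fold change was 0.65 ± 0.90 (SE; adjusted p = 0.934). Without the pair, mock averaged 37.9 ± 12.7 CPM (n = 2) and the fold change was -0.14 ± 0.18 (edgeR adjusted p = 0.99997). Penk averaged 226 ± 52.1 CPM under stress and 140 ± 132 CPM under mock, with a fold change of 0.68 ± 1.02 (edgeR adjusted p = 0.940), and -0.17 ± 0.17 without the pair. Drd2, Tac1, Ppp1r1b and Oxt changed sign in the same way. Avp did not, at 1.29 ± 1.52 with the pair and 0.30 ± 0.59 without it.

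**Figure D4:**
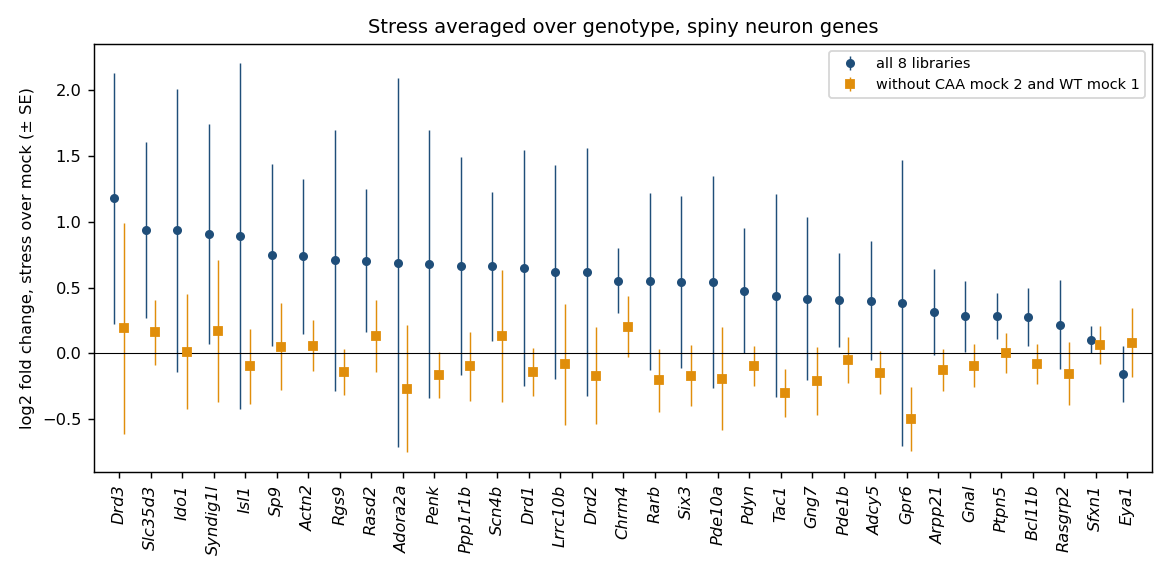
Log2 fold change of stress over mock, averaged over genotype, with its standard error from edgeR for 33 of the 34 spiny neuron genes, in all 8 libraries (circles) and without CAA mock 2 and WT mock 1 (squares). The median over the 34 is -0.10 without the pair, against 0.59 with it, a shift that the choice of the pair fixes; no gene passed an adjusted p of 0.05 in either fit.

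For CAA averaged over treatment, where each side holds 1 of the pair, the spiny median was -0.26 with all libraries and -0.28 without the 2. The edgeR test called 2 genes with all libraries, 1 in each direction (0.00582%), and DESeq2 called 46 of the same 17182 genes; none of either is in a spiny list. Without the pair it called 3 higher (0.0168%) and 1 lower (0.00561%), again none of them in these lists. Drd1 averaged 26.8 ± 2.28 CPM in 3 CAA libraries and 44.5 ± 7.17 CPM in 3 WT libraries without the pair. Its log2 fold change was -0.72 ± 0.18, which did not pass over all genes (edgeR unadjusted p = 0.00137, adjusted p = 0.385). With all 8 libraries the fold change was -0.63 ± 0.90 (edgeR adjusted p = 0.870).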

How the data were processed

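RNA was extracted from brain with RNeasy columns and made into Illumina libraries, per the labels' protocols. The deposited count table holds raw counts per gene for 8 libraries, which the authors obtained by aligning reads to mm10 (HISAT2 2.0.5) and counting them (featureCounts 1.5.0-p3), per the submitters' processing notes. The sources used here give neither strandedness nor the annotation release. The deposited FPKM table, made by the authors, served only for alternatives.

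The 2 striatum-poor libraries were set by under 100 raw counts of Adora2a. Libraries were grouped by title. Genes were kept by filterByExpr (minimum count 10, minimum total 15; 17182 of 54532), and log2 CPM used TMM and a prior count of 2. A gene was called in the descriptive contrast when the 2 and the 6 libraries did not overlap and the difference was at least 1 (log2). A gene with no count in the pair was set to a floor of 3 counts per library; such bounds cover counting error only. The count test was edgeR's (4.0.16, R 4.3.3; quasi-likelihood, robust, 4 group means over all 8 libraries, residual degrees of freedom 4, biological coefficient of variation 0.206), two-sided, adjusted by Benjamini-Hochberg over all genes. DESeq2 1.42.0 was an alternative. The tests were run on simulated counts first. No library repeats another: between any pair, the chi-square over genes was 8.31 to 70.4 per degree of freedom.

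The libraries, the 32 gene lists (338 symbols, 1 absent from the table) and the tests were chosen with earlier results of these data known. Listed genes are named, and outside the lists the 12 lowest and 12 highest by the smaller within-group difference of the same sign, among genes that average 1 CPM or more, do not overlap and have no clone-style symbol; some genes so named are not reported here. Of the 361 genes listed or so named, 97 overlap a gene with counts on the opposite strand. Overlap was taken over the whole span of each gene, and exons were not compared. Promoters were matched by symbol, taking the first start site of each gene.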

Additional observations from a re-analysis of the deposited data

Results flagged for a closer look

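Among the 6 other libraries, 5 of 33 list levels had a library far from the rest by Dixon's criterion. Chance flags about 1 in 20 independent groups. These levels come from the same libraries and some share genes, so the 5 of 33 is no test of an excess. CAA stress 1 stood at 1.82 (mean centred log2 CPM) for monoamine neurons and at 0.88 for midbrain. The striatum-poor pair, CAA mock 2 and WT mock 1, stood at 2.17 and -1.63 for monoamine neurons and at 2.25 and 1.53 for midbrain. CAA stress 1 stood at -3.38 for the sex-linked genes, being the female library of the 6. CAA stress 2 stood at 0.20 for cortical excitatory neurons, and WT stress 2 at 0.54 for immediate early genes.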

How the results depend on the processing

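The median of the spiny genes stayed negative in every alternative run, and was -1.35 on log2(FPKM + 1), where the added 1 shrinks differences of low genes. Leaving out each library in turn gave -2.11 to -2.01. The count of genes at least 2-fold lower was 70 on log2(FPKM + 1), 436 against the mock libraries alone and 573 in male libraries alone, where CAA mock 2 stands by itself, and 295 to 626 with a library left out. The count higher was 249 with no filter, 12 on log2(FPKM + 1), 330 against mock alone, 523 in males and 144 to 563 with a library left out. Fewer libraries loosen the demand of no overlap. The hypothalamic peptide median was -1.16 with no filter, -0.94 in males and -1.94 to -1.001 with a library left out (-1.001 without CAA mock 1). The cortical median was -0.32 in males and -0.27 to 0.44 with a library left out; the cause was not tested. The hippocampal median was 0.42 and the midbrain median 0.56 on log2(FPKM + 1). The midbrain median was 3.55 in males, and leaving out each library gave 2.30 to 3.19 for midbrain and 1.14 to 1.34 for hippocampus. Some midbrain genes passed the count filter only through the pair, so the steadiness of the midbrain median is no support.

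Genes called for stress numbered 49 with no filter, 3 by DESeq2 and 0 to 4 with a library left out. For CAA they numbered 223 with no filter, 46 by DESeq2, 4 without the striatum-poor pair and 2 to 5 with a library left out. For the interaction they numbered 17 with no filter, 4 by DESeq2, 1 without the pair and 0 to 1 with a library left out. Without the pair the stress fold change was -0.14 for Drd1, -0.17 for Drd2, -0.17 for Penk, -0.30 for Tac1, -0.10 for Ppp1r1b and -0.29 for Oxt. With the replicate number as a block, 0 genes were called for stress, 2 for CAA and 0 for the interaction. Deviations of libraries with the same number had correlations of -0.273 to 0.143. The -0.273, of CAA mock 1 with WT mock 1, is the within-group r of 0.273 with its sign turned. With 2 libraries a group, such deviations hold the differences that set the pair apart. Whether the numbers pair samples therefore cannot be told. Of 1319 settings for single gene differences, 123 moved a value by more than the spread within the 6 others. Genes under about 1 CPM rest on few counts, and 2 libraries a group limit every p-value.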
